A study of Mus musculus with 6 samples.

Results

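The genes described here are 35 genes of endoplasmic reticulum (ER) stress and of the amino acid response, followed in the ileum of control mice and of mice labelled Gata6 KO. They were chosen by gene symbol. Each gene was read from a probe set that the platform annotation pairs with exactly 1 symbol, and where a gene had several such probe sets the brightest by mean over the 6 arrays was used. All 35 were measured, of 19938 genes in all. They comprised 14 ER chaperones and folding enzymes, 7 genes of ER-associated degradation and protein translocation, 5 stress sensors and transcription factors, and 9 targets of the transcription factor ATF4.

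Proteins that are to be secreted or placed in membranes fold in the ER, and secretory cells of the intestine carry much of it. When unfolded proteins build up, the membrane sensors IRE1, ATF6 and PERK respond. ER chaperones are raised mainly through XBP1 and ATF6, and PERK slows translation by phosphorylating the initiation factor eIF2alpha. The same phosphorylation, also made by the amino acid sensor GCN2, favours translation of ATF4, which drives genes of amino acid synthesis and transport. Chaperones and ATF4 targets are therefore read as separate arms of the response, and the comparison below sets them side by side.

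RNA of the whole ileal segment was measured on Affymetrix mouse Gene 1.0 ST arrays, with 1 array for each of 3 control and 3 Gata6 KO mice. Control mice carried Villin-CreERT2, in which the Villin promoter drives a Cre recombinase in the gut epithelium that tamoxifen switches on, and the other group carried Villin-CreERT2 together with GATA6 flox/flox alleles. All 6 mice, controls included, were given tamoxifen (100 mg/ml in the labels) for 5 days when 6 to 8 weeks old, and their ileum was taken 28 days later, at an age of 10 to 12 weeks. Muscle, stroma and immune cells were part of the tissue and lie outside the reach of this Cre. In bulk tissue, fewer cells of a type and less RNA per cell cannot be told apart.

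The targeted gene went against the labels. Gata6 read 6.31, 6.33 and 6.50 (log2 signal) in controls 1 to 3 and 6.93, 6.81 and 6.86 in mice labelled Gata6 KO 1 to 3, a log2 difference of 0.49 ± 0.08 (moderated SE, limma adjusted p = 0.0162) toward more signal in the latter. The labels do not place its probes relative to the floxed sequence. The groups are therefore called by their labels throughout. Control replicate 3 also stood apart from the other 5 mice, with an Xist signal of 2.31 against 7.39 to 7.81 and an Eif2s3y signal of 5.30 against 0.27 to 0.62, the signals of a male among females. The median log2 signal of an array lay between 3.33 and 3.44.

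The promoters of these genes hold known response elements, so their sequence is given before the values. The 250 bases before the start site were read from RefSeq (GRCm38.p6) for 30 of the 35 genes; Hyou1, Manf, Derl1, Atf6 and Ern2 were not matched. Exact letters of 4 response elements were searched on both strands. They were the ER stress response element ERSE, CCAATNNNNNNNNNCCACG, the shorter ERSE-II, ATTGGNCCACG, the core of the unfolded protein response element, TGACGTGG, and the C/EBP-ATF response element CARE, TGATGNAA, through which ATF4 acts. None of the matches overlapped a match to another element.

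ERSE letters were found before 9 of the 30 genes (30.0%), 7 of them among 12 chaperones and 2 among 6 degradation and translocation genes, and before none of 9 ATF4 targets or 3 sensors. The same letters were found in 37 of 32851 mouse promoters of the same length (0.113%). Counted by gene, they were found before 20 of 15562 tested genes with a promoter (0.129%), these 9 among them. The 10 matches of these 9 genes are shown because 7 of the 12 chaperones with a promoter hold this element. They are written 5′ to 3′ along the element, with the fixed letters in capitals.
Hspa5 (65 to 47 bases before the start): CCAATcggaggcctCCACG
Hsp90b1 (212 to 194 bases before the start): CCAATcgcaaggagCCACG
Hsp90b1 (107 to 89 bases before the start): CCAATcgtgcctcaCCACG
Pdia6 (98 to 80 bases before the start): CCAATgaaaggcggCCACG
Calr (162 to 144 bases before the start): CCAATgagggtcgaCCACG
Canx (145 to 127 bases before the start): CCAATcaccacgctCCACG
Dnajc3 (105 to 87 bases before the start): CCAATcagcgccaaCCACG
Creld2 (126 to 108 bases before the start): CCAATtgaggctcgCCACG
Syvn1 (44 to 26 bases before the start): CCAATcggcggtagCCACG
Derl3 (156 to 138 bases before the start): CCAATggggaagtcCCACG

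CARE letters were found before Asns, Chac1, Atf3 and Herpud1, so before 3 of the 9 ATF4 targets, and in 1134 of all 32851 promoters (3.45%). ERSE-II letters were found before Herpud1 alone among the 30 genes and in 10 of all promoters (0.0304%). TGACGTGG was in none of the 30 and in 185 of all promoters (0.563%). Counted by gene, the shares of the 15562 tested genes with a promoter were 3.14% for CARE, 0.045% for ERSE-II and 0.784% for TGACGTGG. A match is a description of letters, and binding was not measured.

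Whole upstream windows are given for 5 genes that span the arms: a chaperone with 1 ERSE, a chaperone with 2, the degradation gene that holds both an ERSE-II and a CARE, and a pair of ATF4 targets with a CARE. Each runs 5′ to 3′ along the gene's strand and ends at the base before the start site. Capitals mark the fixed letters of a match, read on the gene's strand, so a match on the other strand appears as its reverse complement.
Hspa5 (chr2:34771840-34772089, plus strand): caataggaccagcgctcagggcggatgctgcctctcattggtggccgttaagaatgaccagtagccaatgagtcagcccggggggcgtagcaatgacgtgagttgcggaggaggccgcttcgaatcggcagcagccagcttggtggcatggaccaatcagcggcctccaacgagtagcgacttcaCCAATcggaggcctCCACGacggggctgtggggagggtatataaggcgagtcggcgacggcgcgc
Hsp90b1 (chr10:86705445-86705694, minus strand): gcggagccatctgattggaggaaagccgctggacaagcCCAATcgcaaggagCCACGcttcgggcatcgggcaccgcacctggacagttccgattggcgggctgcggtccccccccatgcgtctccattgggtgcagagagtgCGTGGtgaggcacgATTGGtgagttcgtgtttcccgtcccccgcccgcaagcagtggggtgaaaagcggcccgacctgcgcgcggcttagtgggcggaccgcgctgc
Herpud1 (chr8:94386179-94386428, plus strand): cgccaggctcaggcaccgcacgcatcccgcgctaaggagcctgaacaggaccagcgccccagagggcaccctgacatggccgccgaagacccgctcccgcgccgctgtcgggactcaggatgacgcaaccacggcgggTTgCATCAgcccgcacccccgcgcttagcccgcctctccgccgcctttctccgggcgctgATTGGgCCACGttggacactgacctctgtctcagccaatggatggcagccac
Asns (chr6:7693210-7693459, minus strand): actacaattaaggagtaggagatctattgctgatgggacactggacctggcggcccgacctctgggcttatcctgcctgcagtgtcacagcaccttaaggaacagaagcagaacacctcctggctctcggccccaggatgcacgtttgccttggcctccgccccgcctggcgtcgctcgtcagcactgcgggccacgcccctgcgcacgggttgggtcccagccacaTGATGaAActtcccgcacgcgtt
Chac1 (chr2:119350992-119351241, plus strand): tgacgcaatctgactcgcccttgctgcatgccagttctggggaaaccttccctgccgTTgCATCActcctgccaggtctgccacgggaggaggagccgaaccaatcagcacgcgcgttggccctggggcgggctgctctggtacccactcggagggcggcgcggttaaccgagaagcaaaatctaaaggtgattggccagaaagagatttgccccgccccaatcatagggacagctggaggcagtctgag

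**Figure D1:**
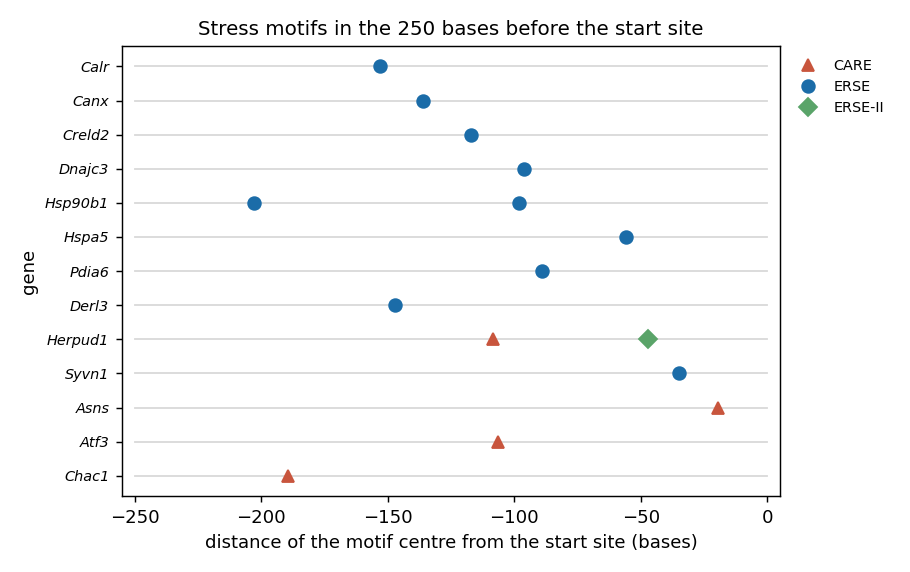
Positions of response element matches in the 250 bases before the start site, for the 13 genes with at least 1 match. The x axis is the distance of the centre of the match from the start site in bases, circles are ERSE, the diamond is ERSE-II and triangles are CARE. ERSE matches lie before chaperones and degradation genes, CARE matches before 3 ATF4 targets and Herpud1.

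Of the 35 genes, 1 was higher and 3 were lower in mice labelled Gata6 KO (limma, adjusted p threshold 0.05, adjusted over 19938 genes). Ern2 was higher; Hyou1, Asns and Psat1 were lower. Over all genes, 4.99% passed as higher and 3.25% as lower, against 2.86% and 8.57% of the 35, which with 1 and 3 genes are too few to be set apart from that background. Most differences of the 35 lay on the lower side, with 29 below 0 and 6 above, and a median log2 difference of -0.17, against 10177 below 0 of 19938 and a median of 0.00 over all genes. The values of the 3 mice of each group did not overlap in 13 of the 35 with mice labelled Gata6 KO lower and in 2 with them higher. Over all genes these shares were 12.6% and 16.8%. Each of the 4 calls was lost when certain single arrays were left out, as given at each gene.

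**Figure D2:**
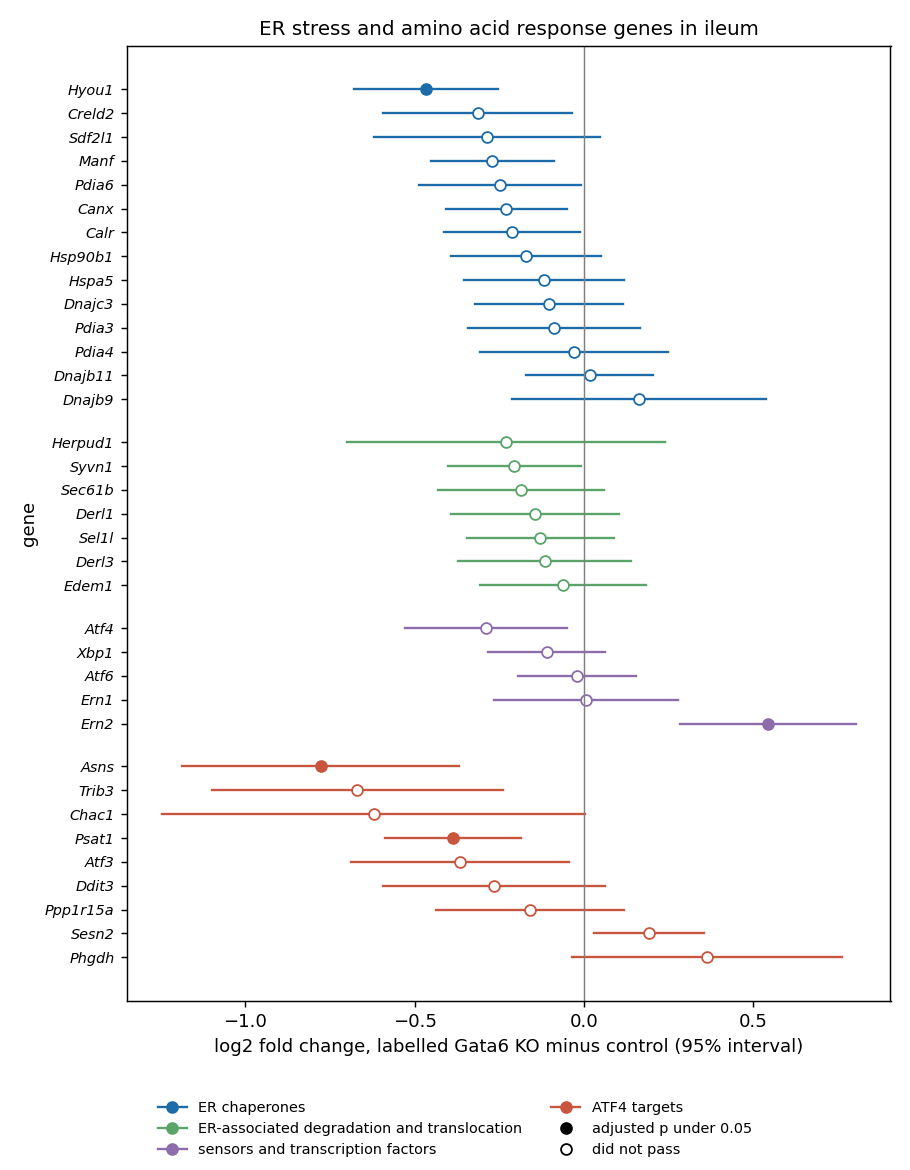
Log2 fold change of each of the 35 genes, mice labelled Gata6 KO minus control, with its 95% interval from limma (3 mice a group). Colours give the list, filled points passed at an adjusted p of 0.05. Ern2, Hyou1, Asns and Psat1 passed, and 29 of 35 points lie below 0.

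Among the 14 ER chaperones, 1 fell and 13 did not pass. Hyou1, a large chaperone of the ER that exchanges nucleotide on BiP, read 8.15, 8.07 and 7.97 (log2 signal) in the control mice and 7.68, 7.47 and 7.64 in the mice labelled Gata6 KO. Every control lay above every mouse of the other group. The difference was -0.47 ± 0.09 (log2, moderated SE, n = 3 a group), a 1.38-fold lower signal with limma adjusted p = 0.0245. The call was lost without any 1 of the 6 arrays, at adjusted p from 0.0534 to 0.0930, while the difference stayed between -0.51 and -0.40.

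BiP itself, encoded by Hspa5 and the master chaperone and stress reporter of the ER, read 10.00, 10.12 and 9.91 in controls and 10.05, 9.76 and 9.87 in mice labelled Gata6 KO. The groups overlapped, with 1 mouse labelled Gata6 KO above 2 of the 3 controls. The log2 difference was -0.12, with a 95% interval from -0.36 to 0.12 (limma adjusted p = 0.519). Hsp90b1, the ER member of the HSP90 family, differed by -0.17 (adjusted p = 0.312) and overlapped as well.

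The other chaperones that had no overlap between groups were Calr, Canx, Creld2 and Manf, and none of them passed. Manf, a small ER-resident protein that is secreted under stress, read 6.63, 6.64 and 6.56 in controls and 6.41, 6.25 and 6.35 in mice labelled Gata6 KO, a difference of -0.27 ± 0.08 (adjusted p = 0.0815). Calr and Canx encode calreticulin and calnexin, the lectins that hold glycoproteins during folding. They differed by -0.21 and -0.23 (adjusted p = 0.181 and 0.119). Creld2, a stress-induced ER protein, differed by -0.31 (adjusted p = 0.162).

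The protein disulfide isomerases, which form and shuffle disulfide bonds, gave small differences: -0.09 for Pdia3, -0.03 for Pdia4 and -0.25 for Pdia6 (adjusted p = 0.667, 0.905 and 0.191). A second, dimmer probe set of Pdia4, at a mean of 3.53, gave 0.28, and the mean of both gave 0.12. The J-domain cochaperones of BiP differed by 0.16 (Dnajb9), 0.02 (Dnajb11, which turned to -0.03 with each array centred on its median and to -0.01 with quantile normalization) and -0.10 (Dnajc3). Their adjusted p lay between 0.547 and 0.926, and both probe sets of Dnajc3 hold identical values. Sdf2l1, a partner of Dnajb11, differed by -0.29 (adjusted p = 0.264). The unadjusted 95% intervals of the 13 chaperones that did not pass lay within 1.54-fold lower and 1.45-fold higher. Those of Pdia6, Calr, Canx, Creld2 and Manf lay wholly below 0. The others included 0, so for them smaller differences in either direction were not resolved with 3 mice a group. Of the 14 chaperones, 6 had an unadjusted p under 0.05 in limma, against 4928 of all 19938 genes.

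None of the 7 genes of degradation and translocation passed in limma, and 1 of them, Syvn1, had an unadjusted p under 0.05. Over all genes, 4928 of 19938 had such a p, which is the background for each count of this kind below. All 7 differences were below 0, with a median of -0.15 and adjusted p from 0.185 to 0.758; the smallest, that of Edem1, came to 0.00 without control replicate 2, and that of Derl1 to 0.03 with control replicates 1 and 3 both left out. Syvn1, the ubiquitin ligase HRD1 that marks misfolded ER proteins, read 5.94, 6.16 and 6.04 in controls and 5.87, 5.85 and 5.80 in mice labelled Gata6 KO. Its groups did not overlap, and the difference was -0.21 ± 0.08. Sel1l, its partner in the same complex, differed by -0.13.

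Herpud1, a scaffold of that complex and the gene with both an ERSE-II and a CARE, read 9.01, 8.60 and 8.31 in controls and 8.71, 8.28 and 8.24 in mice labelled Gata6 KO. The control mice spanned most of the range of the other group, and the difference of -0.23 ± 0.20 was near its error. Edem1, a lectin that delivers glycoproteins for degradation, differed by -0.06, and the derlins Derl1 and Derl3, membrane proteins of the export channel, by -0.15 and -0.12. Sec61b, a subunit of the channel through which new proteins enter, differed by -0.19, and its 2 dimmer probe sets gave -0.19 and -0.13. The intervals of the 7 genes lay within 1.62-fold lower and 1.18-fold higher.

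The sensors split by gene. Ern2 encodes IRE1 beta, the form of IRE1 found in epithelium of gut and airway, where mucus-producing cells depend on it. It read 5.56, 5.71 and 5.81 in controls and 6.05, 6.31 and 6.35 in mice labelled Gata6 KO, with no overlap. The difference was 0.54 ± 0.11 (1.46-fold higher, limma adjusted p = 0.0293, 95% interval 0.28 to 0.80). Without 1 array at a time it stayed between 0.47 and 0.64 and passed only without Gata6 KO replicate 1 (adjusted p = 0.0310); without any 1 of the other 5, adjusted p lay between 0.0634 and 0.120.

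Ern1, which encodes the widely expressed IRE1 alpha, read 5.19, 5.56 and 5.44 in controls and 5.40, 5.52 and 5.29 in mice labelled Gata6 KO. These groups lay over each other, with a difference of 0.01 and a 95% interval from -0.27 to 0.28 (adjusted p = 0.985), and the difference turned to -0.04 with centred arrays and to -0.08 with quantile normalization. The difference between the Ern2 and Ern1 changes was not tested. Atf6 differed by -0.02 (adjusted p = 0.900).

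Xbp1, whose mRNA IRE1 splices to make an active factor, read 8.55, 8.68 and 8.66 in controls and 8.54, 8.54 and 8.48 in mice labelled Gata6 KO. The lowest control lay just above the highest mouse of the other group, and the difference was -0.11 ± 0.07 (adjusted p = 0.403). Splicing of Xbp1 cannot be read from a single signal per gene. Atf4 read 6.72, 6.40 and 6.45 in controls and 6.28, 6.17 and 6.26 in the other group. It did not overlap and did not pass, at -0.29 ± 0.10 (adjusted p = 0.138). ATF4 is controlled largely at translation, which arrays do not measure.

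The 9 ATF4 targets held 2 genes that fell and none that rose, with a median difference of -0.37. Of the 9, 5 had an unadjusted p under 0.05 in limma, with Sesn2 among them on the higher side. Asns, asparagine synthetase and a standard reporter of amino acid shortage, read 8.24, 8.23 and 7.88 in controls and 7.70, 7.13 and 7.18 in mice labelled Gata6 KO. The groups did not overlap, and Gata6 KO replicate 1 lay nearest to the controls. The difference was -0.78 ± 0.17, a 1.71-fold lower signal with limma adjusted p = 0.0390. The call held without Gata6 KO replicate 1 (adjusted p = 0.0234) and was lost without any 1 of the other 5 arrays, at adjusted p from 0.0651 to 0.145; the difference stayed between -0.96 and -0.67.

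Psat1 and Phgdh act in succession in serine synthesis from glycolysis. Their differences had opposite signs, and only that of Psat1 passed. Psat1 read 5.25, 5.15 and 5.08 in controls and 4.67, 4.80 and 4.85 in mice labelled Gata6 KO, without overlap, and was 1.31-fold lower (log2 difference -0.39 ± 0.09, limma adjusted p = 0.0381). Its call was lost without any 1 of the 6 arrays, at adjusted p from 0.0704 to 0.117. Phgdh, which catalyses the committed step, read 4.93, 4.56 and 4.55 in controls and 5.30, 5.10 and 4.73 in the other group. It overlapped by 1 control and did not pass, at 0.36 ± 0.17 (adjusted p = 0.238). A probe set shared by Phgdh and Gm6756 was not used. It was brighter, at a mean of 5.545 against 4.86, and gave -0.06.

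Trib3, a pseudokinase that feeds back on ATF4, read 4.53, 3.86 and 4.10 in controls and 3.27, 3.57 and 3.65 in mice labelled Gata6 KO. It did not overlap and did not pass, at -0.67 ± 0.18 (adjusted p = 0.0714). Without 1 array at a time the difference lay between -0.82 and -0.48, the latter without control replicate 1. With control replicates 1 and 3 both left out it was -0.36. The signal of 3.27 in Gata6 KO replicate 1 lay under the median of that array, 3.38. Chac1, which breaks down glutathione, read 5.72, 4.70 and 4.68 in controls and 4.39, 4.38 and 4.47 in the other group. Control replicate 1 stood apart from the rest, and the difference of -0.62 ± 0.27 (adjusted p = 0.205) became -0.28 without it.

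Atf3, a stress-induced repressor, differed by -0.37 without overlap (adjusted p = 0.156). Ddit3, which encodes the pro-apoptotic factor CHOP, differed by -0.27 (adjusted p = 0.288). Sesn2, a leucine-binding inhibitor of mTORC1, was the 1 target of the 9 with every mouse labelled Gata6 KO above every control, at 0.19 ± 0.07 (adjusted p = 0.146). Ppp1r15a, the phosphatase subunit GADD34 that reverses eIF2alpha phosphorylation, differed by -0.16 (adjusted p = 0.457), and its signals of 3.26 to 3.73 lay near the array medians.

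**Figure D3:**
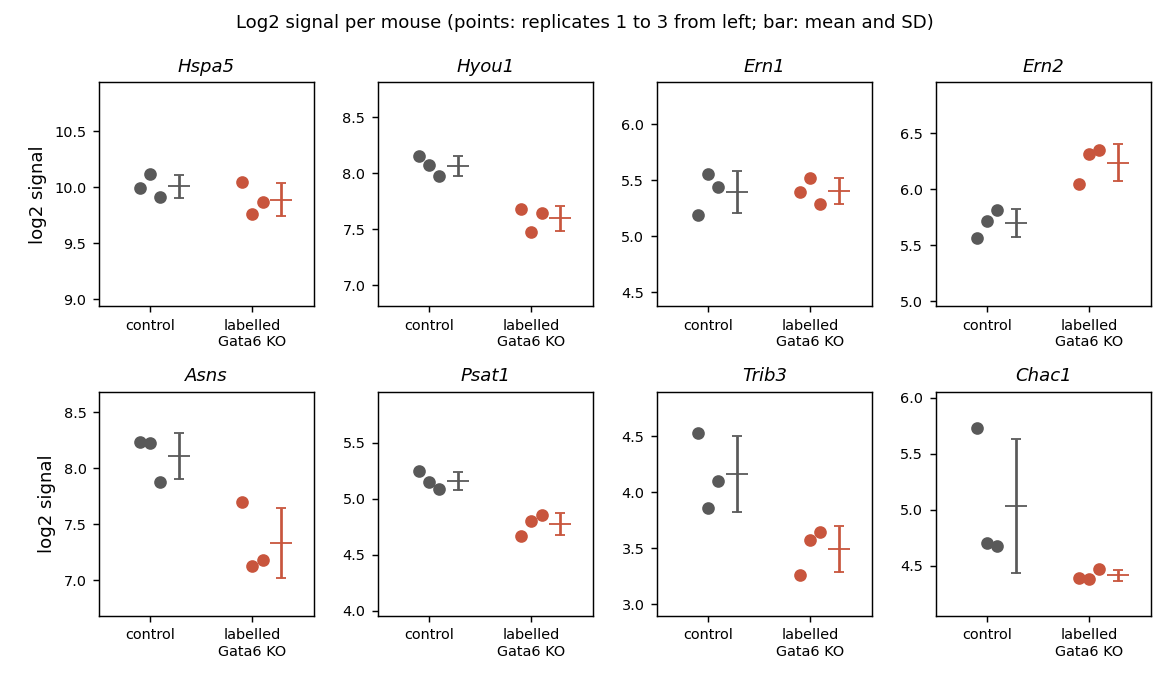
Log2 signal of 8 genes in each of the 6 mice, with the group mean and SD at the side; axes do not start at 0. Hyou1, Asns and Psat1 lie lower and Ern2 higher in mice labelled Gata6 KO without overlap, Hspa5 and Ern1 overlap, and control replicate 1 is the highest point in Trib3 and Chac1.

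Set side by side, the ATF4 targets had the lower median difference, -0.37 against -0.19 for the chaperones, but the contrast between the lists did not exceed the spread between mice. The mean log2 signal over the chaperones was 8.48, 8.51 and 8.38 in controls and 8.43, 8.18 and 8.26 in mice labelled Gata6 KO, which overlap. Over the ATF4 targets it was 5.27, 5.03 and 4.99 against 4.81, 4.83 and 4.76, which do not. The mean over all genes tested stayed between 4.08 and 4.12 on every array.

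Within each mouse, the chaperone mean minus the ATF4 target mean was 3.21, 3.48 and 3.40 in controls and 3.62, 3.35 and 3.50 in mice labelled Gata6 KO. The groups overlap, with means of 3.36 ± 0.138 and 3.49 ± 0.136 (SD, n = 3). Their difference of 0.13 is no larger than either SD, and it was not tested. Leaving out control replicate 1 made it 0.05, leaving out Gata6 KO replicate 1 made it 0.07, and leaving out Gata6 KO replicate 2 made it 0.20. With control replicates 1 and 3 both left out it was 0.01. Degradation and translocation genes had list means of 6.97 to 6.99 in controls and 6.75 to 6.91 in the other group, without overlap, and the sensors overlapped.

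**Figure D4:**
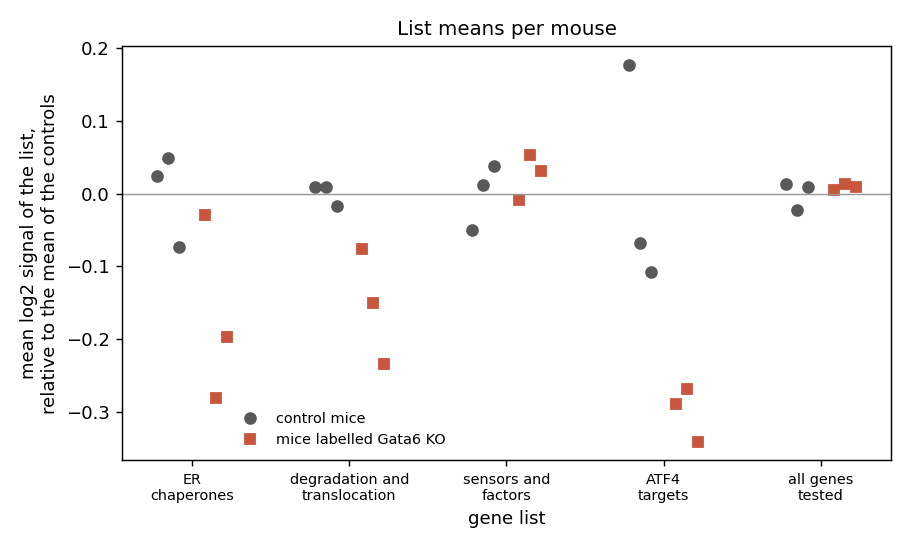
Mean log2 signal of each list per mouse, relative to the mean of the 3 controls, with all genes tested at the right. Circles are control mice and squares mice labelled Gata6 KO. The ATF4 targets and the degradation and translocation genes do not overlap between groups, the chaperones and sensors do, and control replicate 1 is the highest point of the ATF4 targets.

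The promoter elements can be set beside the values. All 9 genes with ERSE letters had differences below 0, between -0.31 and -0.10 with a median of -0.21, and none of them passed. Of the 21 genes with a promoter and no ERSE, 16 were below 0, with a median of -0.16 and 2 that fell. The 4 genes with CARE letters lay between -0.78 and -0.23 with a median of -0.49, and 1 of them, Asns, fell; without control replicate 1 they lay between -0.72 and -0.05 with a median of -0.32. Of the 26 without, 21 were below 0, with a median of -0.14, and 1 of them, Psat1, fell.

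Beyond the 35, a list of further genes under ATF4, mostly of amino acid synthesis and transport, moved in both directions. Of its 30 measured genes, 7 fell (23.3%) and 3 rose (10%), with a median difference of -0.16. Of the 7, Vegfa, Gadd45a, Sesn1 and Nars are not genes of amino acid synthesis or transport. Over all genes 3.25% fell and 4.99% rose, which is the background for the counts of each further list and marker list below. The lists were chosen with earlier results of these data known. Slc3a2, the heavy chain of several amino acid exchangers, read 9.06, 9.03 and 9.01 in controls and 8.33, 8.22 and 8.05 in mice labelled Gata6 KO. Its controls lay close together and far above the other group, with a difference of -0.83 ± 0.09 (1.78-fold lower, limma adjusted p = 0.00282). Aldh18a1, which starts proline synthesis from glutamate, fell from 7.13, 7.24 and 7.11 to 6.47, 6.21 and 6.24, a difference of -0.86 ± 0.10 (1.81-fold lower, adjusted p = 0.00330).

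Cbs, which condenses serine with homocysteine on the way to cysteine, rose 3.85-fold. It read 4.67, 4.04 and 4.39 in controls and 5.90, 6.66 and 6.37 in mice labelled Gata6 KO, a difference of 1.94 ± 0.22 (limma adjusted p = 0.00358). The glycine transporter Slc6a9 rose by 0.70 ± 0.10 (adjusted p = 0.00674) and the neutral amino acid transporter Slc1a4 by 0.72 ± 0.13 (adjusted p = 0.0207). Slc3a2, Aldh18a1, Cbs and Slc6a9 passed without any 1 of the 6 arrays, whereas Slc1a4 passed in 2 of those 6 fits and was lost without control replicates 1 or 3 or Gata6 KO replicates 2 or 3, with adjusted p up to 0.0944. Of all 20 genes outside the 35 and the markers that are called here or below, 18 lost their call without moderation, Creb3l1 and Slc3a2 being kept. With every probe set tested on its own, 11 of the 20 lost it.

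Shmt2, the mitochondrial enzyme that makes glycine from serine, was lower by -0.52 (limma adjusted p = 0.00995) and among the fits without 1 array was lost in that without Gata6 KO replicate 2 (adjusted p = 0.0507). Vegfa, Gadd45a, Sesn1 and Nars were lower by -0.55, -0.46, -0.41 and -0.42, with adjusted p from 0.0136 to 0.0333. They encode an angiogenic growth factor, a DNA damage and stress protein, a sestrin and the asparaginyl-tRNA synthetase. Vegfa passed in 3 of the 6 fits without 1 array, lost without control replicate 3 or Gata6 KO replicates 1 or 3, while among these fits Gadd45a and Sesn1 passed only without control replicate 2 and Nars only without Gata6 KO replicate 1, with adjusted p of the 4 genes up to 0.122. Among 17 measured cytosolic aminoacyl-tRNA synthetases, Nars was the 1 that passed, and Rars, Yars and Cars differed by -0.24, -0.28 and -0.30 without passing.

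Of 29 further ER folding genes, 2 rose and none fell, with a median of 0.03. Pdia5, a disulfide isomerase, read 6.79, 6.68 and 6.56 in controls and 7.17, 7.25 and 7.49 in mice labelled Gata6 KO, a difference of 0.62 ± 0.11 (limma adjusted p = 0.0173). It passed in 3 of 6 fits without 1 array and was lost without control replicate 3 or Gata6 KO replicates 2 or 3 (adjusted p up to 0.0709). Fkbp14, a prolyl isomerase, differed by 0.43 (adjusted p = 0.0395) and passed in 1 of those fits, without control replicate 2; it was also lost when arrays were centred on their medians or quantile normalized. P4hb, the most studied disulfide isomerase, differed by -0.34 (adjusted p = 0.0747) while Agr3, at signals of 0.75 to 1.39, lay under the array medians and is given no difference.

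Of 21 further degradation genes, Erlec1, an ER lectin, and Herpud2, a relative of Herpud1, passed as higher, at 0.31 and 0.33 (limma adjusted p = 0.0482 and 0.0484). Neither passed without any 1 array, nor when arrays were centred or quantile normalized. Ube2g2, a ubiquitin-conjugating enzyme, differed by 0.37 and Ubxn8 by -0.48, and neither passed. Of 37 translocon and vesicle traffic genes, Kdelr3, a receptor that returns ER residents, rose by 0.49 (adjusted p = 0.0169) and Mcfd2, a cargo receptor subunit, fell by 0.64 (adjusted p = 0.0103). Kdelr3 passed in 2 of 6 fits without 1 array, lost without control replicate 3 or any Gata6 KO replicate (up to 0.0683), and Mcfd2 was lost in 1 of the 6, that without Gata6 KO replicate 2 (0.0528). Ostc and Sec13 differed by -0.40 and -0.49 without passing.

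Among 24 further sensors, kinases and bZIP factors, 3 rose and 1 fell. Creb3l1, an ER-anchored factor of the ATF6 kind also called OASIS, read 5.60, 5.69 and 5.49 in controls and 6.72, 6.90 and 6.93 in mice labelled Gata6 KO. The groups lay far apart, with a difference of 1.26 ± 0.09 (2.39-fold higher, limma adjusted p = 0.000904), and it passed in all 6 fits without 1 array. Its relative Creb3l4 differed by 0.39 (adjusted p = 0.0382) and passed in 1 of those fits, without Gata6 KO replicate 1, and not when arrays were centred or quantile normalized. Another relative, Creb3l3, lay the other way at -1.22 ± 0.30, without overlap, and did not pass (limma adjusted p = 0.0531). Creb3l2 and Creb3 differed by 0.295 and 0.09 without passing. Nfe2l2, the antioxidant regulator NRF2, rose by 0.60 (adjusted p = 0.0261), passing in 2 of 6 fits and lost without control replicates 1 or 3 or Gata6 KO replicates 2 or 3 (up to 0.111). Eif2ak2, the eIF2alpha kinase PKR that senses double-stranded RNA, differed by -0.57 (adjusted p = 0.0475) and passed in 1 of 6, without Gata6 KO replicate 2. The other eIF2alpha kinases did not pass. Eif2ak4, which encodes GCN2, differed by 0.28 without overlap (limma adjusted p = 0.0593). Eif2ak3, which encodes PERK, differed by 0.19 and Eif2ak1 by -0.02, both with overlap.

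Cytosolic heat shock genes, the folding response outside the ER, gave 0 of 16 passed in limma and 4 with an unadjusted p under 0.05. That count is near the share over all genes, 4928 of 19938. Their median was 0.24, with 13 of 16 above 0, and the differences ran from -0.22 to 1.17. The groups did not overlap in 5 of 16 (31.2%) with mice labelled Gata6 KO higher and in 0 with them lower. Over all genes these shares were 16.8% and 12.6%. Bag3, a cochaperone, differed by 0.52 (adjusted p = 0.0607), Cryab, a small heat shock protein, by 0.31, and Dnajb4 and Hspb1 by 0.59 and 0.54, with adjusted p up to 0.137.

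Markers of secretory and other cells moved as well. Goblet cells, rich in ER, were read through 7 genes: Muc2, their secreted mucin, was higher by 0.78 and their factor Spdef by 0.61 (limma adjusted p = 0.0225 and 0.0131), Zg16 was lower by -1.44 (adjusted p = 0.0211) and Clca1 differed by -0.40 without passing. The mean over the 7 was 9.56 to 9.73 in controls and 9.38 to 9.79 in mice labelled Gata6 KO. Of 7 Paneth cell markers 6 fell, among them Mmp7 (-2.65) and Itln1 (-2.96), and their mean was 8.80 to 9.10 in controls and 6.55 to 7.43 in the other group. Leaving out 1 array, Muc2 passed only without Gata6 KO replicate 1, Zg16 only without Gata6 KO replicates 1 or 3, and Spdef was lost without control replicate 3 or Gata6 KO replicate 1 (limma adjusted p up to 0.0952). Mmp7, Itln1, Pla2g2a and Defa24 passed without any 1 array, and the other 2 of the 6 in 4 and 2 of 6 such fits. Paneth cells are packed with ER, and the part of these shifts in the differences of chaperones, Ern2 and ATF4 targets was not tested.

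None of 8 plasma cell markers passed in limma, nor had any an unadjusted p under 0.05, and their mean was 5.40 to 5.61 in controls and 5.39 to 5.56 in mice labelled Gata6 KO. Of 7 smooth muscle genes, Tagln passed as higher (0.46, adjusted p = 0.0392) and all 7 lay above 0, with means of 8.25 to 8.44 against 8.43 to 8.84. Fibroblast means were 8.08 to 8.53 against 8.55 to 8.82, with 0 of 5 passed and 3 at an unadjusted p under 0.05, and of 5 macrophage genes Cd14 passed, at 1.23. Epithelial genes marked the tissue in every array, with means of 9.72 to 9.85 against 9.69 to 9.86, and 1 of 7, Vil1, differed by -0.41 (adjusted p = 0.0230). The B cell markers Ms4a1 and Cr2, the T cell marker Cd3d and 4 of 6 exocrine pancreas genes lay under the array medians; 0 of 4 B cell and 0 of 5 T cell markers passed, 0 and 1 at an unadjusted p under 0.05, and 1 pancreas gene, Ctrb1, was lower. None of 8 immediate early genes, which mark handling stress, passed, and 1 had an unadjusted p under 0.05. The calls of Tagln, Cd14 and Vil1 held in 2 of 6 fits without 1 array and that of Ctrb1 in 1. The part of any of these in the results above was not tested.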

How the data were processed

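Total RNA of whole ileum from 3 control mice and 3 mice labelled Gata6 KO was hybridised to Affymetrix mouse Gene 1.0 ST arrays, 1 per mouse, and per the series' design text the mice were separate individuals. The values deposited by the authors are log2 signals, 1 column per mouse; the submitters' processing notes name Affymetrix Expression Console. Its version and its background, normalization and summary steps are not stated there, and log2 is inferred from the range of values. Of 35557 probe sets, 21789 have 1 gene symbol and 1621 several; the brightest per gene left 19938 genes, without scaling or a filter on dim genes. The test was limma 3.58.1 under R 4.3.3 (lmFit, eBayes, two-sided, Benjamini-Hochberg over all genes, adjusted p threshold 0.05), and the code was tested on simulated data. SE and 95% intervals are moderated and unadjusted. The number of arrays limits the precision.

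The 35 genes, the further lists and the markers were chosen with earlier results of these data known. Named beside the 35 are every gene of a further list that passed, or up to 4 with the smallest p where fewer than 4 passed, and up to 4 markers per list. Creb3, Creb3l2 and Creb3l3 are added as relatives of Creb3l1, and Eif2ak1, Eif2ak3 and Eif2ak4 as the other kinases beside Eif2ak2. Promoters are RefSeq GRCm38.p6, searched for exact letters. Alternatives covered scaling, a filter on dim genes, probe set choice, array weights, moderation, a replicate block and leaving out arrays; fitting every probe set on its own was added after seeing the data. Protein features were not analysed here. Figures were drawn with matplotlib 3.10.9.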

Additional observations from a re-analysis of the deposited data

How the results depend on the processing

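Over 16 alternatives and 557 recomputed differences of the 35 genes, 35 lost a call, 4 gained one, 14 without a call moved by more than 1 SD between replicates, and 504 did none of these. The sign turned in 19 values, of 8 genes (Atf6, Derl1, Dnajb9, Dnajb11, Edem1, Ern1, Pdia4 and Ppp1r15a), none of them among the 4 genes that passed. Atf6, Derl1, Dnajb9, Ern1 and Ppp1r15a turned with control replicates 1 and 3 both left out, to 0.03, 0.03, -0.11, -0.16 and 0.01. That fit leaves control replicate 2 as the only control array. The counts of 1 higher and 3 lower gene became 1 and 5 with quantile normalization, which added Manf (adjusted p = 0.0469) and Trib3 (0.0449). They became 0 and 0 without moderation (10 genes at an unadjusted p under 0.05) and with every probe set tested on its own (13 genes). The latter alternative was chosen after seeing the data. In the main limma fit, 14 of the 35 and 4928 of all 19938 genes had such a p. Leaving out 1 array at a time gave 0 to 1 higher and 0 to 1 lower gene. With each array centred on its median, all genes shifted by -0.05, Trib3 also passed as lower (adjusted p = 0.0386), and the calls over all genes were 824 higher and 863 lower against 995 and 648. In a fit of genes above the median level, 32 of the 35 were measured and Manf also passed (adjusted p = 0.0443). Over all genes, calls were 1326 higher and 677 lower in that fit, 168 and 106 without moderation and 491 and 406 over 35557 probe sets. Deviations from the group means correlated at 0.04, -0.04 and 0.15 between same-numbered arrays, and not every array correlated best with its own number. Deviations within a group of 3 constrain each other, so these values cannot settle whether the replicate numbers pair the mice. With the replicate block, 1 gene was higher and 2 were lower, Psat1 being lost (adjusted p = 0.0894). The cause of these changes was not tested. With 3 mice a group, differences of the size seen for most chaperones were not resolved.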
